A study of Mus musculus with 23 samples.

Results

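Expression was compared between the colon of Fn14 knockout mice and wild-type mice that had all received TNBS. The comparison takes 13 of the 23 arrays of the series, 7 of the Fn14 knockout with TNBS and 6 of BALB/c wild type with TNBS, as their titles give them. All genes that a probe set names alone were described, 18194 in all. TNBS (trinitrobenzene sulfonic acid) is a hapten that causes colitis when it is given rectally in ethanol. Both groups were dosed the same way, with a 0.2% solution in a mixture of PBS and ethanol for 6 weeks, with the injected volume raised from 1 to 2 ul per g. Colon was collected 3 days after the last dose. Arrays of the same genotypes without TNBS, 5 of each, served as the background of the genotype. The labels do not say whether those mice received the solvent, how the knockout was made, on which strain it was first made, or that each array is a separate mouse. The p-values measure the spread between these arrays, which may in part be technical.

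Fn14 is a small receptor of the TNF receptor family, encoded by Tnfrsf12a, and its ligand is the cytokine TWEAK. Once bound, it recruits TRAF adaptor proteins and activates NF-kappaB and MAP kinases. In tissue under injury it is made by epithelial, endothelial and mesenchymal cells, where its signal induces chemokines, adhesion molecules and matrix-degrading enzymes. Values below are log2 expression levels. A change is the knockout mean minus the wild-type mean on that scale, with its standard error (SE). A gene is called when its adjusted p, from limma with Benjamini-Hochberg adjustment over all 18194 genes, is under 0.05. The lowest value of the series is 2.17, and changes of genes at that floor are understated. In whole colon, fewer cells of a type and less RNA per cell cannot be told apart.

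Arrays within a group correlated at 0.989 to 0.998. Xist, made from the inactive X chromosome, averaged 12.04 in wild-type and 11.93 in knockout arrays with TNBS, and Y-linked genes stood at the floor on all arrays. The gap between the 3' and 5' control probe sets of Gapdh, which grows as RNA breaks down, was smaller in the knockout (0.943 ± 0.031, SD, n = 7) than in wild type (1.06 ± 0.073, n = 6, two-sided exact permutation p = 0.00291, adjusted 0.0117 over 4 measures). The same measure for beta-actin did not pass (exact permutation p = 0.423). Genes of smooth muscle and interstitial cells of Cajal averaged 10.97 to 11.19 in wild-type and 10.96 to 11.17 in knockout arrays. Absorptive colonocyte genes averaged 10.79 to 11.06 and 11.01 to 11.18. Pancreas genes averaged 7.85 and 9.91 on wild-type arrays 3 and 6 and at most 4.19 on the other 11 arrays. Skeletal muscle genes ran from 3.36 to 6.54 (median 4.79) in wild type and from 4.70 to 7.49 (median 6.61) in the knockout, and squamous epithelium genes from 5.24 to 7.76 and from 4.94 to 8.90. B cell genes ran from 6.53 to 7.44 in wild type and from 5.09 to 7.06 in the knockout, with knockout array 7 the lowest. The part of these differences in each result below was not tested, but the results were refitted with the Gapdh, skeletal muscle, squamous or B cell values as a covariate and without wild-type arrays 3 and 6.

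The targeted gene, Tnfrsf12a, checks the labels. It ran from 6.77 to 8.25 (median 7.24) in wild-type arrays and from 3.84 to 4.17 (median 4.11) in knockout arrays. Every knockout array lay far below every wild-type array. The difference was 9.78-fold (change -3.29 ± 0.20, adjusted p = 9.26e-09), and a second probe set gave -3.31. The position of these probe sets relative to the deletion was not given in the sources used here. Tnfsf12, which encodes TWEAK, has no value, since each of its probe sets names several genes.

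With TNBS, 1902 of 18194 genes (10.5%) were called, 679 higher (3.73%) and 1223 lower (6.72%) in the knockout. In 622 of these (3.42% of all genes) the ranges of the groups did not overlap, 164 higher (0.901%) and 458 lower (2.52%). Changes of at least 1 on the log2 scale were mostly downward, 175 lower and 21 higher (196 in all, 1.08%). The split of calls moved with the scaling: 35.7% of called genes were higher with the values as they are, 49.9% with quantile normalization and 70.08% with arrays centred on their medians, which shifts all genes up by 0.09. Genes with large falls included proteases of mast cells, metalloproteinases, monocyte chemokines and complement genes. Genes with large rises included products of the epithelium and some MHC class I genes. For the list counts below, the shares to set beside them are the 6.72% lower and 3.73% higher over all genes. With the Gapdh signal as a covariate 738 genes were called, 590 of them among the 1902, and without wild-type arrays 3 and 6 the count was 1177.

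**Figure D1:**
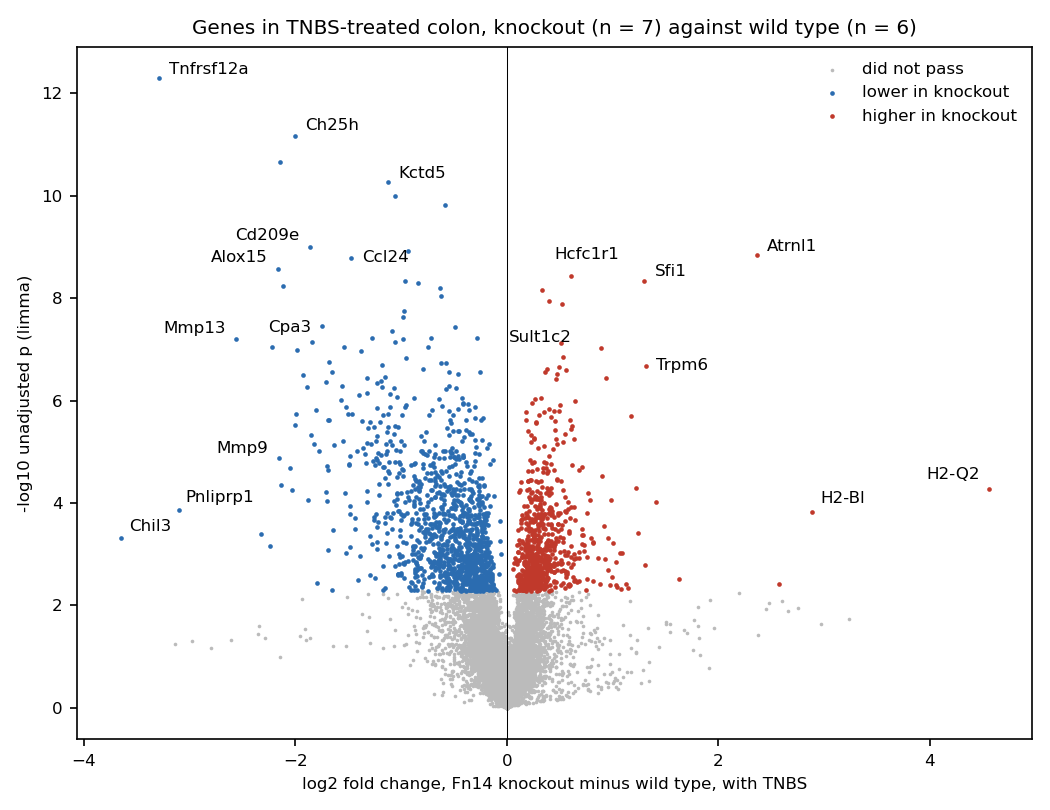
Change of every gene (horizontal axis, log2 level of the knockout minus wild type with TNBS) against the strength of its evidence (vertical axis, -log10 of the unadjusted limma p), with called genes in blue (lower, 1223) and red (higher, 679). Tnfrsf12a (-3.29) stands at the top left, and the largest changes to the right are the MHC class I genes H2-Q2 (4.56) and H2-Bl (2.89).

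**Figure D2:**
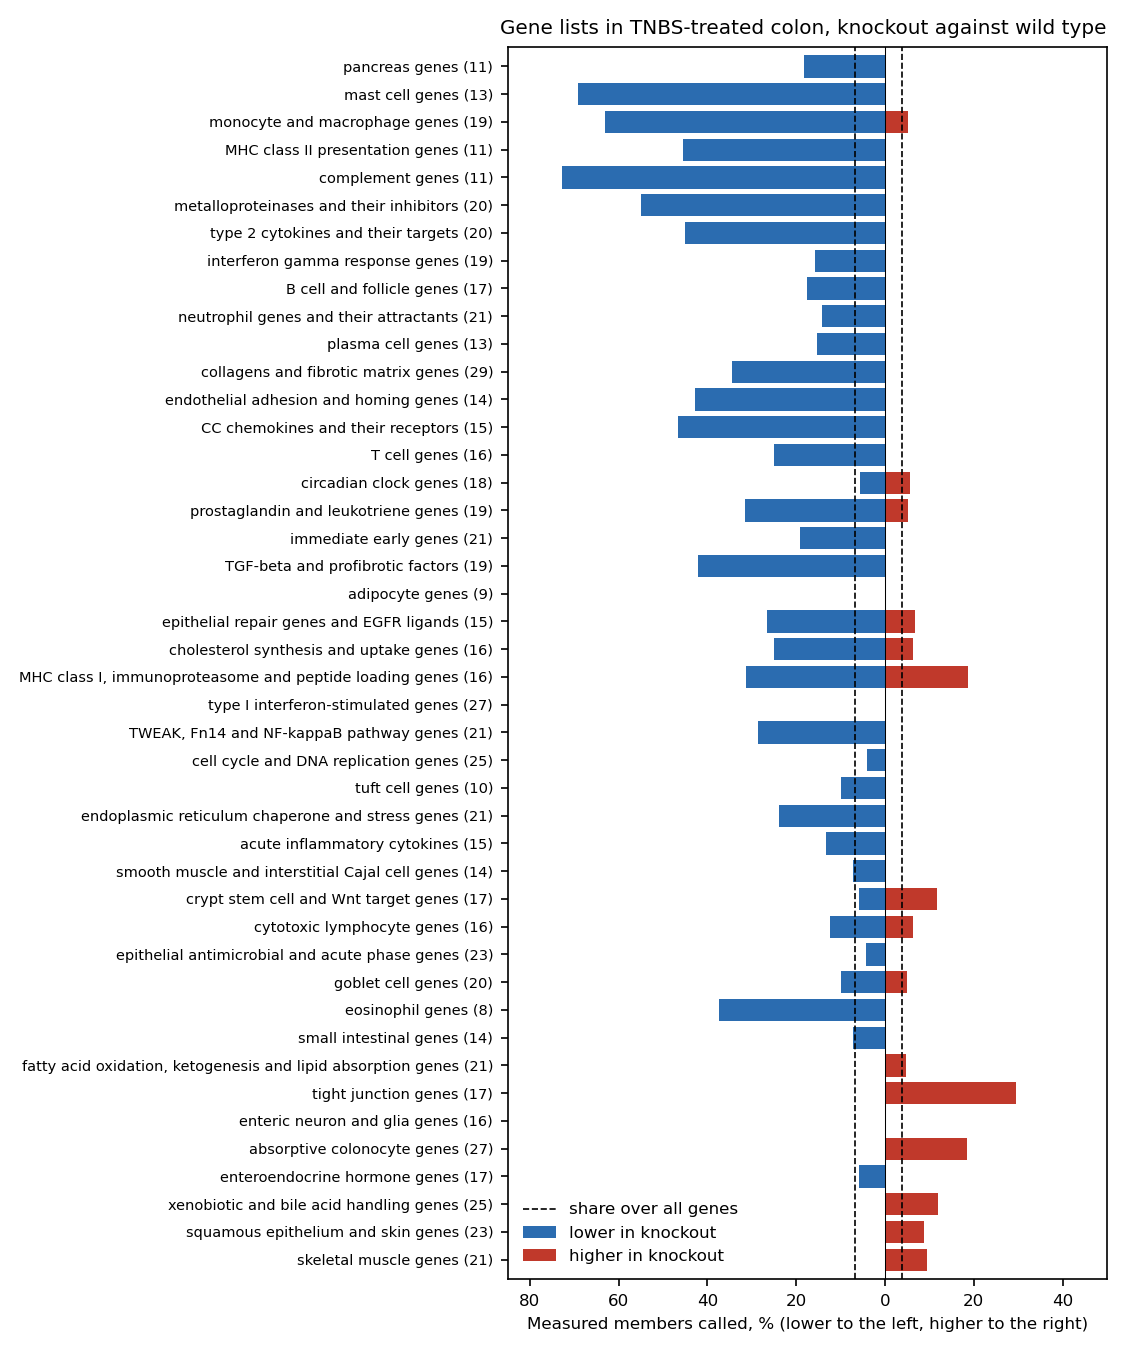
Share of each gene list that was called lower (left) or higher (right) in the knockout with TNBS, with the number of measured members in parentheses and dashed lines at the shares over all genes (6.72% and 3.73%). The complement (72.7%), mast cell (69.2%) and macrophage (63.2%) lists have the longest bars to the left, and tight junction genes (29.4%) the longest to the right.

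Fn14 itself, TRAF adaptors, NF-kappaB components and possible targets were examined together as a list. Of 21 measured members 6 were called lower and none higher, where 6.72% of all genes were lower (median change of the list -0.16, 0 over all genes). The 6 include Tnfrsf12a, the targeted gene, whose fall was set by the design. The list also mixes parts of the pathway with possible targets. Its share is therefore not a test of genes downstream of Fn14. Besides Tnfrsf12a the lower genes were the adaptor gene Traf2, the NF-kappaB inhibitor gene Nfkbie, the scavenger receptor gene Cd163 and the adhesion molecules Icam1 and Vcam1. Vcam1, which holds leukocytes at activated endothelium, ran from 9.92 to 10.80 (median 10.34) in wild-type and from 8.64 to 9.60 (median 9.29) in knockout arrays. The ranges were apart, and the change was -1.23 ± 0.18 (adjusted p = 0.000263). Icam1 ran from 8.86 to 9.07 in wild type and from 7.35 to 8.61 in the knockout (-0.71 ± 0.17, adjusted p = 0.00954), again without overlap. Traf2 and Nfkbie differed less (-0.40 ± 0.11 and -0.44 ± 0.13, adjusted p = 0.0248 and 0.0297). Traf2 lost its call without wild-type array 4 or 6 or knockout array 2 or 6 (adjusted p up to 0.0676), and Nfkbie, named after its values were seen, without wild-type array 5 or 6 or knockout array 2, 6 or 7 (up to 0.0753). The list's count, Tnfrsf12a included, was 3 without knockout array 2, with the B cell covariate, or without wild-type arrays 3 and 6.

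Mast cells, which store proteases and histamine and carry the IgE receptor, had the largest share of lower genes among the cell types listed. Of 13 measured mast cell genes 9 were lower and 4 did not pass (median -0.97). Cpa3, mast cell carboxypeptidase, ran from 7.88 to 9.13 (median 8.63) in wild-type and from 6.16 to 7.46 (median 6.70) in knockout arrays. The ranges were well apart, and the level was 3.36-fold lower (-1.75 ± 0.20, adjusted p = 2.62e-05). Fcer1a, the binding chain of the IgE receptor, ran from 8.07 to 9.14 (median 8.49) in wild type and from 4.91 to 7.42 (median 6.78) in the knockout. It too was apart between the groups, at a 3.99-fold difference (-2.0 ± 0.30, adjusted p = 0.00031). Its beta chain, Ms4a2, was lower by -1.68 ± 0.21 (adjusted p = 7.53e-05), with overlapping ranges. The connective tissue chymase Mcpt4 was lower by -1.71 ± 0.23 (adjusted p = 0.000124) and the mast cell protease pseudogene Mcpt-ps1 by -2.11 ± 0.22 (adjusted p = 6.44e-06), both without overlap. Hdc, which makes histamine, was lower by -1.32 ± 0.26 (adjusted p = 0.00278), at 4.46 in wild type and 3.14 in the knockout. The Hdc call ended when values under log2 5 were set to 5, or with the Gapdh covariate. Mcpt1, the chymase of mucosal mast cells, was bright in both groups and ran from 12.86 to 13.36 in wild type and from 11.84 to 12.38 in the knockout (-0.97 ± 0.28, adjusted p = 0.0341). The ranges were apart, but its call ended without wild-type array 1, 3 or 5 or knockout array 1, 2 or 7 (adjusted p up to 0.0763). Kit, Gata2 and Tpsg1 were also lower, and with the Gapdh covariate 5 of the list were called. Probe sets of the Mcpt family can bind transcripts of related genes. Hdc and Mcpt1 were named after their values were seen.

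The promoters of Cpa3 and Fcer1a are shown because GATA factors bind many mast cell genes and both genes fell together. They are RefSeq sequences of assembly GRCm38.p6, from 250 bases before to 50 bases after the gene's start, with the motif AGATAA in capitals (TTATCT where it lies on the opposite strand).
Cpa3 promoter (chr3:20242132-20242431, minus strand): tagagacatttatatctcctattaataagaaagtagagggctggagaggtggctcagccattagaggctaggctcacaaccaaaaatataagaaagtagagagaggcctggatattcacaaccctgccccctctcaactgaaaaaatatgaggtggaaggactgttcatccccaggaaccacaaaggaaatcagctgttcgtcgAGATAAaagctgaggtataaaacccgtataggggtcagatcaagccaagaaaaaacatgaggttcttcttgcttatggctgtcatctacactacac
Fcer1a promoter (chr1:173227180-173227479, minus strand): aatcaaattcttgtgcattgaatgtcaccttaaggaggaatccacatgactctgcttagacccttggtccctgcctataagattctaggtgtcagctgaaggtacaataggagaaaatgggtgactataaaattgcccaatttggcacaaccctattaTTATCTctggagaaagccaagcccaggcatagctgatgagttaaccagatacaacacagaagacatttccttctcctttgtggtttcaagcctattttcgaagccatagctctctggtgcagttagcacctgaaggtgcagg
The motif begins 46 bases before the start in Cpa3 and 92 in Fcer1a. It was searched on both strands and is in the promoters of 4 of 11 mast cell genes, Cpa3, Fcer1a, Ms4a2 and Tpsg1, and in 11.2% of all 32851 promoters. The list count takes a gene with a match at any listed start, while the share over all promoters counts each start. The same holds for the other motifs, so these shares are not like for like. The Mcpt4 promoter has no match in this window.

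Genes of the type 2 response, in which IL-4 and IL-13 act on macrophages and epithelium and recruit eosinophils, were lower in 9 of 20 measured cases and higher in none (median -0.57). Ccl24 (eotaxin-2), an eosinophil attractant, ran from 3.36 to 4.27 in wild type, whereas the knockout median stood close to the floor at 2.18 and its highest array at 2.86. The change was -1.47 ± 0.14 (adjusted p = 2.96e-06). Ccl11 (eotaxin-1) ran from 8.88 to 9.49 (median 9.34) and from 7.0 to 8.05 (median 7.95), a 2.87-fold difference without overlap (-1.52 ± 0.22, adjusted p = 0.000257). The mannose receptor gene Mrc1 was lower by -1.08 ± 0.18 (adjusted p = 0.00074). Both resistin-like genes were lower: Retnla, made by alternatively activated macrophages, by -1.49 ± 0.26 (adjusted p = 0.00125), and Retnlb, made by goblet cells, by -0.83 ± 0.16 (adjusted p = 0.00211). Retnlb was apart between the groups, Retnla was not. Chil3, a chitinase-like protein of macrophages, ran from 8.24 to 10.23 (median 8.66) in wild type but from the floor to 9.59 (median 4.73) in the knockout. Its knockout arrays were thus widely spread and overlapped wild type (-3.65 ± 0.87, adjusted p = 0.0105). Chil3 was named after its values were seen, and without wild-type arrays 3 and 6 it did not pass (-3.35, adjusted p = 0.0563). Il13 itself stood at or within 0.01 of the floor on all arrays. With the Gapdh covariate Retnla, Retnlb and Chil3 were not called.

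Among 8 measured eosinophil genes 3 were lower. Alox15, the lipoxygenase of eosinophils and macrophages, ran from 3.45 to 5.31 (median 5.01) in wild type and from 2.40 to 2.79 (median 2.60) in the knockout. All knockout arrays were below all wild-type arrays, at a 4.48-fold difference (-2.16 ± 0.21, adjusted p = 4.38e-06). Rnase2a, of the eosinophil ribonuclease family, ran from 10.45 to 12.20 and from 8.11 to 10.65, with overlap (-2.03 ± 0.40, adjusted p = 0.00275). Siglecf, an eosinophil surface lectin, was lower by -1.01 ± 0.23 (adjusted p = 0.00818), a call that ended with the Gapdh covariate or without wild-type arrays 3 and 6. The granule protein gene Epx was one of 3 members at the floor on all 13 arrays. Ccl24 and Alox15 lost their calls when values under log2 5 were set to 5.

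**Figure D3:**
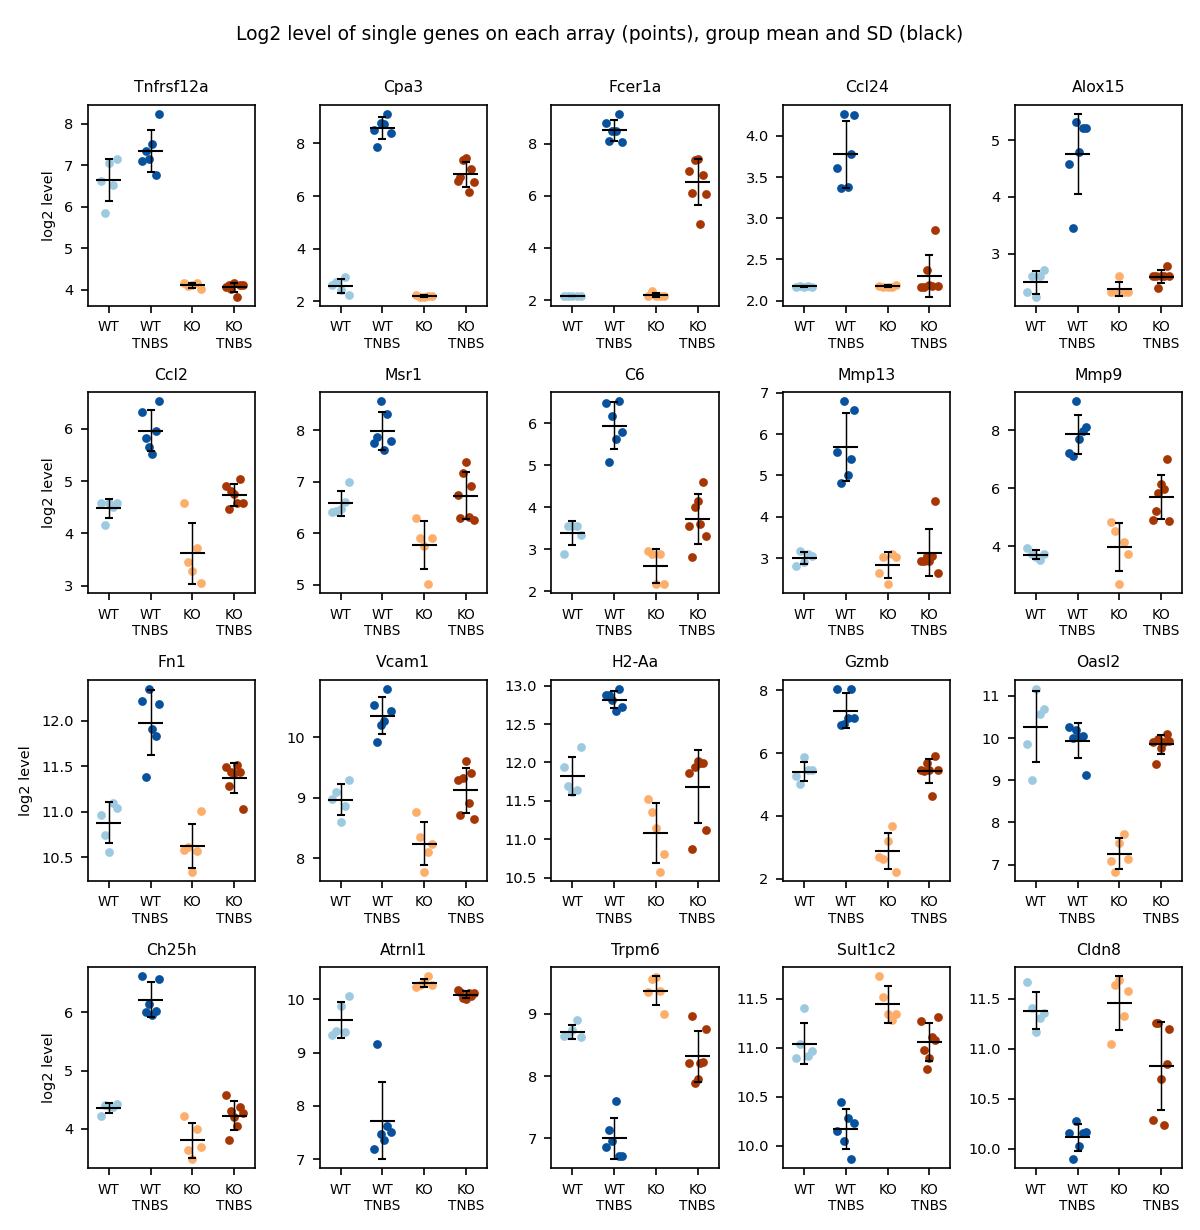
Log2 level of 20 genes on each array (points), with the group mean and SD in black, for wild type and Fn14 knockout (KO) without and with TNBS. With TNBS the knockout arrays of Cpa3, Fcer1a, Ccl24, Alox15, Mmp13 and Ch25h lie below all wild-type arrays, those of Atrnl1, Trpm6 and Sult1c2 lie above them, and Oasl2 separates the genotypes only without TNBS.

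Of 19 measured genes of monocytes and macrophages 12 were lower, 1 was higher and 6 did not pass (median -0.88). The mean of the list ran from 7.93 to 8.56 on wild-type and from 7.13 to 7.99 on knockout arrays. Msr1, a scavenger receptor, ran from 7.61 to 8.56 (median 7.82) in wild type and from 6.25 to 7.38 (median 6.73) in the knockout. The ranges did not overlap (-1.26 ± 0.22, adjusted p = 0.00115). Csf1r, the receptor for the macrophage growth factor CSF1, was lower by -0.88 ± 0.16 (adjusted p = 0.00177), the lysosomal marker Cd68 by -1.22 ± 0.27 (adjusted p = 0.00659) and the Fc receptor gene Fcgr3 by -1.25 ± 0.22 (adjusted p = 0.00126). C1qa, of the first complement component, was lower by -0.96 ± 0.20 (adjusted p = 0.00368). Mertk, a receptor for the uptake of dying cells, went the other way. It ran from 8.03 to 8.69 (median 8.35) in wild type and from 8.68 to 9.21 (median 8.96) in the knockout, and the ranges met at one edge (0.63 ± 0.10, adjusted p = 0.000621). Cd209e, a C-type lectin, was at the floor on most knockout arrays and at 3.39 to 5.09 on wild-type arrays (-1.86 ± 0.17, adjusted p = 2.56e-06), a call that ended when values under log2 5 were set to 5. Csf1r, Cd68 and C1qa were named after their values were seen. Without wild-type arrays 3 and 6 the list had 7 lower genes, and Cd68 was not among the called.

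Of 15 genes of CC chemokines, which draw monocytes and other leukocytes into tissue, and their receptors 7 were lower, none was higher and 8 did not pass (median -0.29). Ccl2, the main ligand of the monocyte receptor CCR2, ran from 5.51 to 6.53 (median 5.89) in wild type and from 4.47 to 5.04 (median 4.75) in the knockout. The groups were apart, at a 2.35-fold difference (-1.23 ± 0.20, adjusted p = 0.000664). Ccl7 was lower by -1.78 ± 0.30 (adjusted p = 0.000884) and Ccl8 by -1.52 ± 0.39 (adjusted p = 0.0165). Ccl7 averaged 5.14 in wild type and 3.36 in the knockout, and its call ended when values under log2 5 were set to 5. The receptor genes Ccr1 and Ccr2 were lower by -1.31 ± 0.20 and -1.02 ± 0.22 (adjusted p = 0.000447 and 0.00487), Ccr1 without overlap. Ccl9 and Ccl12 completed the 7. Ccl8, named after its values were seen, was not called with the Gapdh covariate or without wild-type arrays 3 and 6.

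Complement genes had 8 lower members of 11 measured and none higher (median -0.78). C6, a subunit of the membrane attack complex, ran from 5.08 to 6.52 (median 5.97) in wild type and from 2.82 to 4.60 (median 3.59) in the knockout. No array of the knockout came within the wild-type range, and the difference was 4.66-fold (-2.22 ± 0.27, adjusted p = 4.46e-05). The anaphylatoxin receptor genes C3ar1 and C5ar1 were lower by -1.33 ± 0.23 and -0.78 ± 0.17 (adjusted p = 0.00124 and 0.00532), and C1ra, a protease of the first component, by -0.87 ± 0.18 (adjusted p = 0.0042). The other called members were C1s1, C2, Cfp and the inhibitor gene Cd55. With the Gapdh covariate 5 members were lower.

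Il1b, a cytokine of activated myeloid cells, ran from 8.23 to 10.49 (median 9.16) in wild type and from 5.72 to 8.74 (median 7.10) in the knockout. Its ranges overlapped, with a 4.40-fold difference of the means (-2.14 ± 0.41, adjusted p = 0.00238). Of 21 neutrophil genes and attractants 3 were lower, Il1b and the chemokines Cxcl1 and Cxcl5 (-1.41 ± 0.42 and -1.65 ± 0.52, adjusted p = 0.0358 and 0.0489). Cxcl1 lost its call without wild-type array 1 or 6 or any knockout array but array 4 (adjusted p up to 0.093), and Cxcl5 without wild-type array 1, 2, 3 or 6 or any knockout array but array 6 (up to 0.126). The neutrophil granule gene S100a8 was spread from 5.20 to 9.71 in wild type and from 3.46 to 8.96 in the knockout and did not pass (-0.49 ± 0.89, adjusted p = 0.889). Of 15 acute inflammatory cytokine genes 2 were lower, Il1b and Ptgs2, which encodes cyclooxygenase-2 (-0.66 ± 0.17, adjusted p = 0.0171). Over all genes 6.72% were lower, against 14.3% of the neutrophil and 13.3% of the cytokine list. Ptgs2 was not called with the Gapdh, B cell or skeletal muscle covariate. Tnf (-0.12, adjusted p = 0.126) and Il6 (-0.02, adjusted p = 0.196) lay near the floor in both groups.

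T cell genes were lower in 4 of 16 measured cases and higher in none (median -0.28). Icos, a costimulator of activated and follicular helper T cells, ran from 7.07 to 7.86 (median 7.5) in wild type and from 4.07 to 6.15 (median 5.73) in the knockout, without overlap. It was 4.01-fold lower (-2.0 ± 0.31, adjusted p = 0.000404). Ctla4, an inhibitory receptor, was close to the floor on all knockout arrays and at 2.61 to 5.4 on wild-type arrays (-1.44 ± 0.33, adjusted p = 0.00808). Its call ended with the Gapdh or skeletal muscle covariate. Cd4 and Cd5 were the other called members, and Foxp3 did not differ measurably at its level near the floor (0.00, adjusted p = 0.817). Without wild-type array 1, 5 or 6 or knockout array 2 or 7 the count was 2.

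Granzymes and perforin moved in opposite directions. Gzmb, a protease of cytotoxic lymphocytes, ran from 6.89 to 8.05 (median 7.12) in wild type and from 4.64 to 5.90 (median 5.46) in the knockout (-1.93 ± 0.25, adjusted p = 0.0001). Gzma was lower by -1.85 ± 0.30 (adjusted p = 0.000545). Both granzymes were apart between the groups. These were the only 2 lower genes of 16 cytotoxic lymphocyte genes (12.5%, against 6.72% of all genes). Prf1, perforin, was the 1 higher gene, from 7.30 to 7.63 in wild type and from 7.66 to 8.09 in the knockout (0.34 ± 0.07, adjusted p = 0.0025), and lost its call with the Gapdh covariate. Ifng lay near the floor (-0.11, adjusted p = 0.282).

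B cell genes were called in 3 of 17 cases, all lower (median -0.52). The shares of lower genes were 17.6% of the B cell and 15.4% of the plasma cell list, against 6.72% of all genes. Cxcl13, which draws B cells into follicles, ran from 10.67 to 11.41 and from 9.15 to 10.76 (-0.97 ± 0.26, adjusted p = 0.0229), a call that ended without wild-type array 5 or 6 or knockout array 2 (adjusted p up to 0.0538). The lymphocyte homing receptor Ccr7 was lower by -1.08 ± 0.23 (adjusted p = 0.00526), and Cd74 is described with MHC class II. The B cell surface gene Ms4a1, named after its values were seen, differed by -0.43 ± 0.34 (adjusted p = 0.509). Of 13 plasma cell genes 2 were lower, Fkbp11, a chaperone of secretory cells (-0.77 ± 0.18, adjusted p = 0.00876), and the receptor gene Tnfrsf13b (-0.81 ± 0.23, adjusted p = 0.0259). Tnfrsf13b lost its call without wild-type array 1 or 5 or knockout array 2, 6 or 7 (up to 0.0594), which left 1 plasma cell gene, while 4 were lower without knockout array 4. With the Gapdh covariate none of Cxcl13, Ccr7, Fkbp11 and Tnfrsf13b was called.

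MHC class II molecules present peptides to CD4 T cells. Of 11 measured genes of class II presentation 5 were lower, 6 did not pass and all 11 changes were below 0 (median -0.87). The mean of the list ran from 10.34 to 10.86 on wild-type and from 8.73 to 10.17 on knockout arrays. H2-Aa, an alpha chain, ran from 12.66 to 12.96 (median 12.84) in wild type and from 10.87 to 12.02 (median 11.94) in the knockout. Its groups were apart, at a 2.19-fold difference (-1.13 ± 0.19, adjusted p = 0.000884). H2-Ab1 was lower by -1.0 ± 0.16 (adjusted p = 0.000661), H2-Eb1 by -0.87 ± 0.15 (adjusted p = 0.00123), and the invariant chain gene Cd74 by -0.75 ± 0.15 (adjusted p = 0.00311). H2-DMa, which helps to load peptides, was lower by -1.29 ± 0.20 (adjusted p = 0.000365). All 5 genes were apart between the groups. Dimmer probe sets of H2-Aa gave -0.52 and 0.13 and those of H2-Ab1 gave -1.24 and -1.68. As the plot of list means by array shows, knockout arrays 2 and 7, at 8.73 and 8.91, were the lowest, and array 7 also had the lowest B cell mean (5.09).

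Promoters of H2-Aa and H2-Eb1 are shown because class II genes share a Y box, the site of the factor NF-Y, and these genes fell together. The motif CTGATTGG is in capitals, in RefSeq sequence of GRCm38.p6 over the same window.
H2-Aa promoter (chr17:34287774-34288073, minus strand): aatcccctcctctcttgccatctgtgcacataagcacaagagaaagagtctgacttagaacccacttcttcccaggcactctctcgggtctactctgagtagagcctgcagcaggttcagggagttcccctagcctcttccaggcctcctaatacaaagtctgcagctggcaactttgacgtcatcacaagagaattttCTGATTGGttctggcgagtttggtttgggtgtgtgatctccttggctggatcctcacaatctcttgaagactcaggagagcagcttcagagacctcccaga
H2-Eb1 promoter (chr17:34305617-34305916, plus strand): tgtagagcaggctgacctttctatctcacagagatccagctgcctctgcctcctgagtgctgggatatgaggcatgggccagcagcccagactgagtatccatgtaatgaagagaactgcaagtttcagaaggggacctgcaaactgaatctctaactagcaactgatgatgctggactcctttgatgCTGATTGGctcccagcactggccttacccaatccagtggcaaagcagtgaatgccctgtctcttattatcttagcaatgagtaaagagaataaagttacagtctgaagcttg
The Y box begins 51 bases before the start in H2-Aa and 62 in H2-Eb1. Searched on both strands, it is in the promoters of 3 of 8 class II genes, the other being H2-Oa, and in 4.10% of all promoters. Neither listed start of H2-DMa has a match.

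MHC class I genes moved in both directions. Of 16 measured genes of class I presentation 5 were lower, H2-K1, H2-M3, Tap2, Psmb8 and Psmb9, and 3 were higher, H2-Q2, H2-Bl and H2-T3. With the skeletal muscle covariate 1 was lower and 1 higher, and with the Gapdh covariate 3 were lower and 2 higher. H2-Q2 ran from 2.17 to 2.55 in wild type, whereas 6 knockout arrays lay between 7.03 and 8.65 and knockout array 5 stood at 2.47, within the wild-type range. The change was 4.56 ± 0.89 (adjusted p = 0.00269). H2-Bl had the same form, at 2.59 to 3.08 in wild type, a knockout median of 5.96 and 3.00 on knockout array 5 (2.89 ± 0.62, adjusted p = 0.00505). Without TNBS these genes also differed, H2-Q2 by 4.23 (adjusted p = 0.021) and H2-Bl by 3.28 (adjusted p = 0.011), and 1 of 5 untreated knockout arrays had H2-Q2 at 2.47. H2-T3, named after its values were seen, was higher by 1.15 ± 0.36 (adjusted p = 0.046), a call that ended when any 1 was left out of wild-type arrays 1, 3, 4, 5 and 6 or knockout arrays 1, 2, 6 and 7 (up to 0.0971), and a dimmer probe set gave 0.22. H2-M3 and the peptide transporter gene Tap2 were lower by -1.48 ± 0.32 and -1.04 ± 0.20 (adjusted p = 0.00534 and 0.00291), with knockout array 2 far below the others in both. Probe sets of class I genes can bind transcripts of related genes.

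Of 27 type I interferon-stimulated genes none was called with TNBS by limma (median -0.18), and 3 had an unadjusted p under 0.05. The mean of the list ran from 8.86 to 9.96 on wild-type and from 8.91 to 9.62 on knockout arrays, which overlapped fully. Ifit1 differed by -0.13 ± 0.30 (adjusted p = 0.952) and Oasl2 by -0.09 ± 0.27 (adjusted p = 1.0). Interferon gamma response genes were lower in 3 of 19 measured cases (15.8%, against 6.72% of all genes, median -0.56). Cxcl9, a chemokine for T cells, ran from 7.87 to 8.88 and from 6.48 to 7.78, without overlap (-1.17 ± 0.32, adjusted p = 0.0241). Its call ended without wild-type array 3 or 5 or knockout array 2 (up to 0.0566), and without wild-type array 5 or knockout array 2 no gene of that list was called, against 1 without wild-type array 1, 2 or 3 or knockout array 1 or 5.

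**Figure D4:**
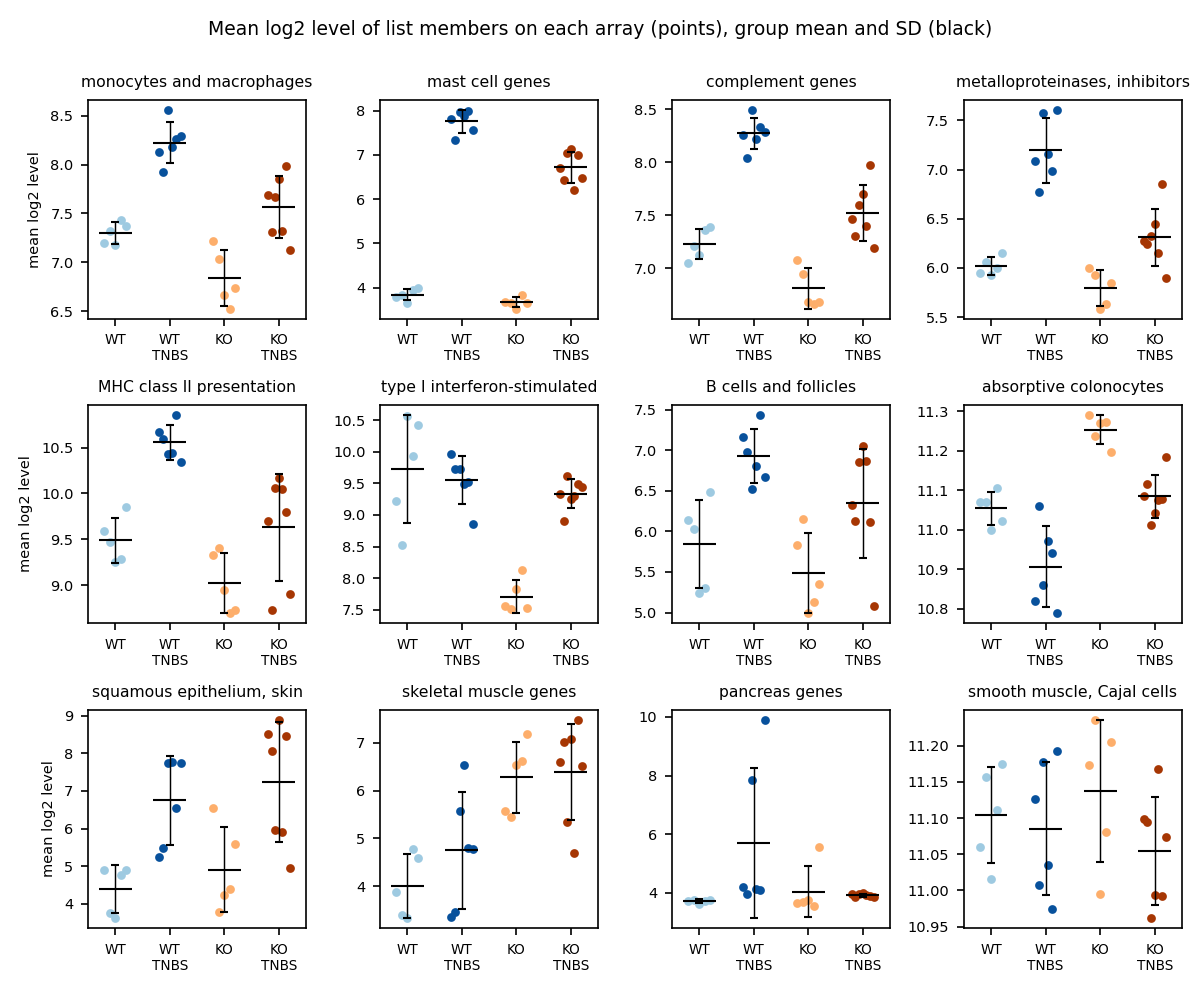
Mean log2 level of the members of 12 gene lists on each array (points), with the group mean and SD in black, for wild type and Fn14 knockout (KO) without and with TNBS. With TNBS the mast cell list runs from 7.33 to 7.99 in wild type and from 6.21 to 7.13 in the knockout, the type I interferon list separates the genotypes only without TNBS, and pancreas genes stand out on 2 wild-type arrays with TNBS.

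Metalloproteinases, which cut matrix, cytokines and cell surface proteins, were among the largest falls. Of 20 measured metalloproteinase and inhibitor genes 11 were lower and none higher (median -0.59), and the mean of the list ran from 6.77 to 7.61 on wild-type and from 5.90 to 6.85 on knockout arrays. Mmp13, a collagenase, ran from 4.81 to 6.80 (median 5.48) in wild type and from 2.65 to 4.39 (median 2.93) in the knockout. All but knockout array 6 lay below 3.1, and the difference was 5.88-fold (-2.56 ± 0.30, adjusted p = 3.73e-05). Mmp9, the gelatinase of neutrophils and macrophages, ran from 7.12 to 9.01 (median 7.85) and from 4.88 to 7.0 (median 5.84), a 4.45-fold difference without overlap (-2.15 ± 0.37, adjusted p = 0.00104). Mmp10, a stromelysin of wounded epithelium, ran from 8.72 to 10.78 (median 9.19) and from 6.24 to 8.64 (median 7.44), also apart and 4.13-fold lower (-2.05 ± 0.37, adjusted p = 0.00137). Mmp3, a stromelysin of fibroblasts, ran from 5.72 to 6.77 and from 4.0 to 5.75, and the ranges touched (-1.49 ± 0.26, adjusted p = 0.00126). The membrane protease gene Adam8 was lower by -1.37 ± 0.21 (adjusted p = 0.000356). Mmp12, the macrophage elastase, was spread from 3.67 to 7.33 in wild type and from 2.25 to 5.62 in the knockout (-2.32 ± 0.55, adjusted p = 0.0095). The inhibitor gene Timp1 did not pass (-1.12 ± 0.37, adjusted p = 0.0614). Mmp12 and Timp1 were named after their values were seen. Without wild-type arrays 3 and 6 the list had 5 lower genes and Mmp12 did not pass (-1.51, adjusted p = 0.0706), and with the Gapdh covariate it had 7.

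Promoters of 4 Mmp genes on chromosome 9 are shown because AP-1, a target of MAP kinases, binds genes of this cluster. Mmp13, Mmp3, Mmp10 and Mmp12 were picked because they were called lower. A part of AP-1 in their falls was not tested. The AP-1 motif TGANTCA, which reads the same on both strands, is in capitals in RefSeq sequence of GRCm38.p6.
Mmp13 promoter (chr9:7272264-7272563, plus strand): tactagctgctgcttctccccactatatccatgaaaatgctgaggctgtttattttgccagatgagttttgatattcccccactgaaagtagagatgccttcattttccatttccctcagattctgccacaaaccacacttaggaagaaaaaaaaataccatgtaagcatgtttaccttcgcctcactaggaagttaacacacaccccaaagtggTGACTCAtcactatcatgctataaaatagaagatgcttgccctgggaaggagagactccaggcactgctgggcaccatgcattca
Mmp3 promoter (chr9:7445572-7445871, plus strand): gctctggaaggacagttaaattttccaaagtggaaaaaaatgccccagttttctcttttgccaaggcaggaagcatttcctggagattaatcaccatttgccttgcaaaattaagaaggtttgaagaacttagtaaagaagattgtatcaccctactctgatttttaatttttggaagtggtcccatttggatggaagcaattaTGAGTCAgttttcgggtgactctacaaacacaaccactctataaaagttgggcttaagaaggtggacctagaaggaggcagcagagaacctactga
Mmp10 promoter (chr9:7502092-7502391, plus strand): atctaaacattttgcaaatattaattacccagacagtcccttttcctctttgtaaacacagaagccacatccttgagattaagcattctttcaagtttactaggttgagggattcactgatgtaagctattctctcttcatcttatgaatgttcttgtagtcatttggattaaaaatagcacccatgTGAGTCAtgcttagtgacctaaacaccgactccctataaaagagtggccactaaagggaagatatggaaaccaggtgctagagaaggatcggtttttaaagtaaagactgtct
Mmp12 promoter (chr9:7347124-7347423, plus strand): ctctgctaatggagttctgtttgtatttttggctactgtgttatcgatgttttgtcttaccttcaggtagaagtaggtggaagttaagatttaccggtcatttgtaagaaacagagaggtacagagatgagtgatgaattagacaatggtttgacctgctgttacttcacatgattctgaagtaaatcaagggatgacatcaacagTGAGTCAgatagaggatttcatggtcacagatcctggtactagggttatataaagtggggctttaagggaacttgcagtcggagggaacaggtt
The motif begins 35 bases before the start in Mmp13, 46 in Mmp3, 63 in Mmp10 and 44 in Mmp12, where it belongs to the second of the listed starts and the first has no match. It is at any listed start of 5 of 17 genes of the list, and in 7.81% of all promoters, where each start counts. The fifth gene is Mmp7, which did not pass (-0.47 ± 0.30, adjusted p = 0.397). A single narrow form of the NF-kappaB motif was searched as well, and the Icam1 promoter had no match to that form. Other forms of the site were not searched, so whether the Icam1 promoter holds an NF-kappaB site was not tested. Of 8 endothelial genes 1 had a match to the searched form, Madcam1. In the list that holds Fn14 this form was found for 6 of 20 genes, Nfkb2, Nfkbia, Rel, Tnfaip3, Traf2 and Traf3. Of these only Traf2 was called. The searched form is in 1.63% of all promoters.

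Collagens and other matrix genes differed by less. Of 29 measured members 10 were lower and none higher (median -0.34). Fn1, fibronectin, ran from 11.38 to 12.35 (median 12.05) in wild type and from 11.03 to 11.51 (median 11.43) in the knockout (-0.61 ± 0.14, adjusted p = 0.00836). The groups overlapped through the lowest wild-type array. Col18a1, a basement membrane collagen, was lower by -0.82 ± 0.17 (adjusted p = 0.00389) and Tnc, tenascin C of healing stroma, by -0.48 ± 0.10 (adjusted p = 0.0042), both without overlap. Col6a2 was lower by -0.35 ± 0.08 (adjusted p = 0.00909). Col1a1, the main fibrillar collagen, did not pass (-0.25 ± 0.11, adjusted p = 0.15), though without TNBS it was lower by -0.52 (adjusted p = 0.0194). Col1a1 was named after its values were seen. A slightly dimmer Col1a1 probe set, at 11.33 in wild type and 10.73 in the knockout with TNBS, gave -0.60. The count of the list was 19 without wild-type array 2, 5 without wild-type array 3 or knockout array 7, 6 without wild-type array 1, 4, 5 or 6, and 2 without wild-type arrays 3 and 6 together.

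TGF-beta and other profibrotic factors were lower in 8 of 19 cases and higher in none (median -0.23). Tgfb1, at low signal, ran from 3.49 to 4.33 (median 3.96) in wild type and from 2.34 to 3.01 (median 2.90) in the knockout, and every knockout array was below wild type (-1.10 ± 0.15, adjusted p = 0.000184). Its call ended when values under log2 5 were set to 5. Tgfbi, a matrix protein induced by TGF-beta, was lower by -0.42 ± 0.09 (adjusted p = 0.00625), and the PDGF receptor gene Pdgfra by -0.42 ± 0.07 (adjusted p = 0.00103). The receptor gene Tgfbr1 was lower by -0.20 ± 0.04 (adjusted p = 0.00574), and not called after centring. The list's count was 5 without wild-type array 3 or knockout array 5, and 3 with the Gapdh covariate.

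Endothelial adhesion and homing genes were lower in 6 of 14 cases (median -0.30). Pecam1, which marks endothelium and platelets, ran from 5.94 to 6.62 (median 6.31) in wild type and from 5.14 to 5.58 (median 5.34) in the knockout. The ranges were apart (-0.95 ± 0.14, adjusted p = 0.000254). Selp, P-selectin, was lower by -1.0 ± 0.22 (adjusted p = 0.00614), also apart, but not called without wild-type arrays 3 and 6. Vwf, Esam, Icam1 and Vcam1 made up the rest, and with the skeletal muscle covariate the count was 3.

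After Tnfrsf12a, Ch25h had a change with one of the smallest p-values. It encodes cholesterol 25-hydroxylase, whose product is the precursor of an oxysterol that guides B cells and dendritic cells. Ch25h ran from 5.96 to 6.63 (median 6.09) in wild type and from 3.80 to 4.57 (median 4.26) in the knockout. The groups were far apart, at a 4.0-fold difference (-2.0 ± 0.14, adjusted p = 6.24e-08). Rab27a, a GTPase of granule secretion, ran from 9.87 to 10.33 and from 7.97 to 8.53 (-1.99 ± 0.24, adjusted p = 4.84e-05), though a dimmer probe set gave -0.48. Of 19 prostaglandin and leukotriene genes 6 were lower and 1 was higher (Ptger3, not called without wild-type array 1, 5 or 6). Alox5ap, which hands substrate to the 5-lipoxygenase, was lower by -1.02 ± 0.18 (adjusted p = 0.0012), without overlap. The count of that list was 3 with the Gapdh covariate.

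Of 21 immediate early genes 4 were lower (19%, against 6.72% of all genes). Egr1, a transcription factor induced by growth signals, ran from 11.57 to 12.42 (median 11.84) in wild type and from 10.21 to 11.19 (median 10.66) in the knockout, apart between the groups (-1.25 ± 0.20, adjusted p = 0.000436). The MAP kinase phosphatase gene Dusp1 was lower by -0.49 ± 0.11 (adjusted p = 0.00578), and Ccn1, a matricellular protein, by -0.84 ± 0.22 (adjusted p = 0.0164). Without knockout array 3 the count was 7, and with the mean of a gene's probe sets it was 2. Ccn1 was not called with the Gapdh, B cell or skeletal muscle covariate. Clock genes gave 1 lower gene, the repressor Ciart (-1.88 ± 0.38, adjusted p = 0.00352; 3 lower without knockout array 1 and 2 without array 4 or 5), and 1 higher, Arntl, which encodes BMAL1 (1.09 ± 0.34, adjusted p = 0.0481). Arntl lost its call without any 1 of the 6 wild-type arrays or knockout array 2, 3, 6 or 7 (up to 0.0999), and Dbp, a clock output gene, did not pass (-1.36 ± 0.51, adjusted p = 0.0991). The hour at which colons were taken was not given in the sources used here.

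Endoplasmic reticulum chaperone genes were lower in 5 of 21 cases, among them Sdf2l1 (-0.72 ± 0.14, adjusted p = 0.00275) and the disulfide isomerase gene Pdia4 (-0.74 ± 0.20, adjusted p = 0.0194). Without wild-type array 5 that count was 2 and Pdia4 was not called (adjusted p = 0.054), and without knockout array 2 or 7 it was 3. Of 16 cholesterol synthesis genes 4 were lower and 1 higher, with Insig1, which restrains that pathway, at -0.33 ± 0.07 (adjusted p = 0.00684). Insig1 was not called after centring. The cholesterol count was 2 without wild-type array 5 or knockout array 7, and its higher gene, Dhcr7, lost its call without wild-type array 1, 4 or 5 or knockout array 3, 4 or 5. Of 15 epithelial repair genes and EGFR ligands 4 were lower and 1 higher. The plasminogen activator gene Plau was lower by -0.82 ± 0.22 (adjusted p = 0.0188) and its receptor gene Plaur by -0.71 ± 0.20 (adjusted p = 0.0249), while the EGFR ligand gene Tgfa was higher (0.42 ± 0.10, adjusted p = 0.0128). The repair count was 2 lower genes without wild-type array 1, 4, 5 or 6 or knockout array 2 or 5, and Plaur lost its call without wild-type array 1 (adjusted p = 0.0509). None of the 3 was called with the Gapdh covariate.

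Absorptive colonocyte genes were higher in 5 of 27 cases and lower in none (3.73% of all genes were higher; median 0.11). Hsd11b2, which inactivates glucocorticoids, ran from 11.42 to 11.80 (median 11.64) in wild type and from 12.05 to 12.56 (median 12.20) in the knockout. Its groups were apart (0.61 ± 0.10, adjusted p = 0.00043). The sodium-proton exchanger gene Slc9a2 and the brush border cadherin gene Cdhr5 were higher by 0.33 ± 0.08 and 0.32 ± 0.08 (adjusted p = 0.0103 and 0.0149). Scnn1b, of the epithelial sodium channel, and Slc51a, of a bile acid exporter, were the others. The count was 3 without wild-type array 1 or 6 or knockout array 1, 2, 6 or 7, and 1 with the Gapdh or B cell covariate or without wild-type arrays 3 and 6.

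Xenobiotic and bile acid genes were higher in 3 of 25 cases (12%, against 3.73% of all genes, median 0.16). Sult1c2, a sulfotransferase, ran from 9.86 to 10.45 (median 10.19) in wild type and from 10.78 to 11.32 (median 11.08) in the knockout, without overlap and 1.86-fold higher (0.89 ± 0.11, adjusted p = 4.53e-05). Cyp2d26, a cytochrome P450, was higher by 0.76 ± 0.20 (adjusted p = 0.0186), and not called without wild-type array 5 (adjusted p = 0.0528). The count was 1 without wild-type array 5 and 5 or 6 without wild-type array 2 or 4 or knockout array 3 or 5, and it was 9 after centring. Outside the list, the carboxylesterase gene Ces2b was higher by 1.17 ± 0.18 (adjusted p = 0.000314), the P450 gene Cyp3a44 by 1.07 ± 0.27 (adjusted p = 0.0164) and the pantetheinase gene Vnn1 by 1.03 ± 0.28 (adjusted p = 0.0215). Vnn1 lost its call without wild-type array 1 or 5 (up to 0.059), and the B cell covariate ended those of Cyp2d26, Cyp3a44 and Vnn1.

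Tight junction genes were higher in 5 of 17 cases and lower in none (median 0.07). Cldn8, a sealing claudin of the distal colon, ran from 9.90 to 10.28 (median 10.16) in wild type and from 10.24 to 11.26 (median 10.85) in the knockout (0.71 ± 0.16, adjusted p = 0.00808). Most knockout arrays were above all wild-type arrays, and the ranges overlapped only at their edge. Cldn2, a pore-forming claudin, ran from 9.99 to 10.69 and from 10.76 to 11.02 (0.52 ± 0.10, adjusted p = 0.00211), while a dimmer probe set gave -0.11. Marveld3 was higher by 0.36 ± 0.06 (adjusted p = 0.00076) and Cldn12 by 0.21 ± 0.04 (adjusted p = 0.00324). Cldn7 was the fifth, and with the Gapdh covariate the count was 3, Cldn2 and Cldn12 not among them.

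Goblet cell genes hardly moved, with 1 of 20 higher and 2 lower (median -0.01). Over all genes 3.73% were higher and 6.72% lower. The membrane mucin gene Muc1 was higher by 0.58 ± 0.16 (adjusted p = 0.0221), a call that ended without wild-type array 1, 4 or 5 (up to 0.0574). The count of lower goblet cell genes was 4 without knockout array 5 and 1 without wild-type array 1, 4 or 5 or any other knockout array but array 4. The secreted mucin gene Muc2 did not pass (-0.15, adjusted p = 0.0567). Of 23 epithelial antimicrobial genes 1 was lower, Itln1, a lectin of goblet and Paneth cells, from 12.93 to 13.49 in wild type and from 11.73 to 12.14 in the knockout (-1.39 ± 0.36, adjusted p = 0.0184). The groups were apart, but the call ended with the Gapdh covariate or without wild-type arrays 3 and 6, and the list had 3 lower genes without knockout array 6. Cell cycle genes gave 1 lower gene of 25, Ccnd1 (2 without wild-type array 1 or 3), and the proliferation marker Mki67 did not pass (-0.13, adjusted p = 0.674).

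Outside the lists, the largest rise among genes whose groups did not overlap was that of Atrnl1, an attractin-like membrane protein. It ran from 7.20 to 9.17 (median 7.5) in wild type and from 10.00 to 10.17 (median 10.12) in the knockout, with wild-type array 2 alone above 8. The difference was 5.16-fold (2.37 ± 0.22, adjusted p = 2.92e-06). Trpm6, the epithelial magnesium channel, ran from 6.71 to 7.60 (median 6.91) and from 7.89 to 8.97 (median 8.21), a 2.49-fold rise (1.32 ± 0.17, adjusted p = 8.09e-05). Cplx2, a complexin of secretory vesicles, was higher by 1.41 ± 0.29 (adjusted p = 0.00368), and other probe sets gave 0.03 and 0.09. Sfi1, a centrosome protein gene, was higher by 1.30 ± 0.13 (adjusted p = 5.94e-06), and nearly as much without TNBS (1.45, adjusted p = 1.57e-05). Further genes that were higher without overlap were Tsacc (0.94 ± 0.12), Prdm2 (0.90 ± 0.17), Ttll6 (0.86 ± 0.23), Garem1 (0.77 ± 0.15), Tppp3 and Tppp (0.72 ± 0.17 and 0.72 ± 0.13) and Spen (0.69 ± 0.12), with adjusted p from 0.000108 to 0.0191. A further Prdm2 probe set, at 7.38 and 7.39, gave no such difference (0.00).

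Genes of tissues that a colon sample can include were examined as well. Over all genes 3.73% were higher and 6.72% lower. Of 21 skeletal muscle genes 2 were higher, among them the slow troponin gene Tnni1 (1.24 ± 0.29, adjusted p = 0.00899), while the median change was 1.77 and all 21 changes were above 0. Without wild-type array 4 the count was 12 and without knockout array 5 it was 7, whereas it was 1 without wild-type array 1, 2, 3, 5 or 6 or knockout array 1, 2, 6 or 7, and 0 with the Gapdh covariate. Of 23 squamous genes 2 were higher (median 0.37). Leaving out any 1 array took that count to 0 or 1, with medians from 0.13 to 0.84, and with the Gapdh covariate the count was 0 and the median -0.86. Of 11 pancreas genes 2 were lower (median -2.28). That median was -1.10 without wild-type array 6, -1.64 without array 3 and 0.0 without both. Pnliprp1, a pancreatic lipase-related gene, ran from 5.17 to 10.48 in wild type and from 3.53 to 4.78 in the knockout (-3.09 ± 0.66, adjusted p = 0.00481). Without wild-type arrays 3 and 6 the change was -1.88 (adjusted p = 0.0114). Clps, colipase, was lower by -0.82 ± 0.16 (adjusted p = 0.00252).

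Genes near Tnfrsf12a were examined because sequence that flanks a targeted locus stays linked to it. Within 5 Mb on chromosome 17, in the gene order of assembly GRCm38.p6, 190 genes were measured, of which 6 were higher and 9 lower (7.89% called). Clps, Dusp1 and Tpsg1, described above with their lists, are among the lower genes of this stretch. On the rest of the chromosome 28 of 648 were higher and 62 lower (13.9%), and 10.5% of all genes were called. The class II genes H2-Aa, H2-Eb1 and H2-DMa, described above, are among the lower genes of that rest. Without TNBS 10 of the 190 were higher and 1 lower (5.79% called). The shares without TNBS were 7.25% on the rest of the chromosome and 4.83% over all genes. The part of linked sequence in these calls, or in those of the MHC class I and class II genes, was not tested. Kctd5, an adaptor of ubiquitin ligases, ran from 8.09 to 8.59 (median 8.40) in wild type and from 6.87 to 7.45 (median 7.29) in the knockout (-1.13 ± 0.09, adjusted p = 2.49e-07). Hcfc1r1 ran from 11.80 to 12.11 and from 12.32 to 12.63 (0.61 ± 0.06, adjusted p = 5.63e-06). Both were apart between the groups and differed alike without TNBS, by -1.27 (adjusted p = 3.67e-07) and 0.65 (adjusted p = 1.99e-05). Mettl26 was the third that differed in the same direction under both conditions. Zfp40 (0.58 ± 0.12, adjusted p = 0.00376) and Amdhd2 (-0.45 ± 0.08, adjusted p = 0.0011) were called only with TNBS, and their effects under the 2 conditions did not pass a test of the difference (adjusted p = 0.198 and 0.164).

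Without TNBS the genotypes differed in 879 genes (4.83%), 531 higher (2.92%) and 348 lower (1.91%). Tissue content also differed between the untreated groups. Small intestinal genes averaged 6.34 to 8.60 (median 6.62) on wild-type and 6.72 to 8.59 (median 8.39) on knockout arrays without TNBS. With TNBS they averaged 6.66 to 7.13. Skeletal muscle genes averaged 3.33 to 4.79 and 5.46 to 7.19 without TNBS. With the skeletal muscle covariate 100 genes were called without TNBS. The part of tissue content in these calls and in the difference below was not tested. Of the 1902 genes called with TNBS, 169 were called in the same direction without it (8.89% of those with and 19.2% of those without), 72 higher and 97 lower, and 23 were called in opposite directions. The difference of the genotype effects was itself called in 363 genes (2.00%), 250 negative (1.37%) and 113 positive (0.621%). Both splits changed with the scaling: without TNBS 378 were higher and 378 lower after quantile normalization and 240 and 473 after centring, and the difference was positive in 170 and negative in 147 after quantile normalization, and in 441 and 106 after centring. Among the 1902 genes it was called in 198 (10.4%), so for most of the genes called only with TNBS the effect was not shown to differ from that without. The plot of genotype differences without and with TNBS shows both kinds. Without wild-type array 1 or knockout array 4 of the untreated groups, 458 and 484 genes were called without TNBS, and 238 and 213 for the difference.

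**Figure D5:**
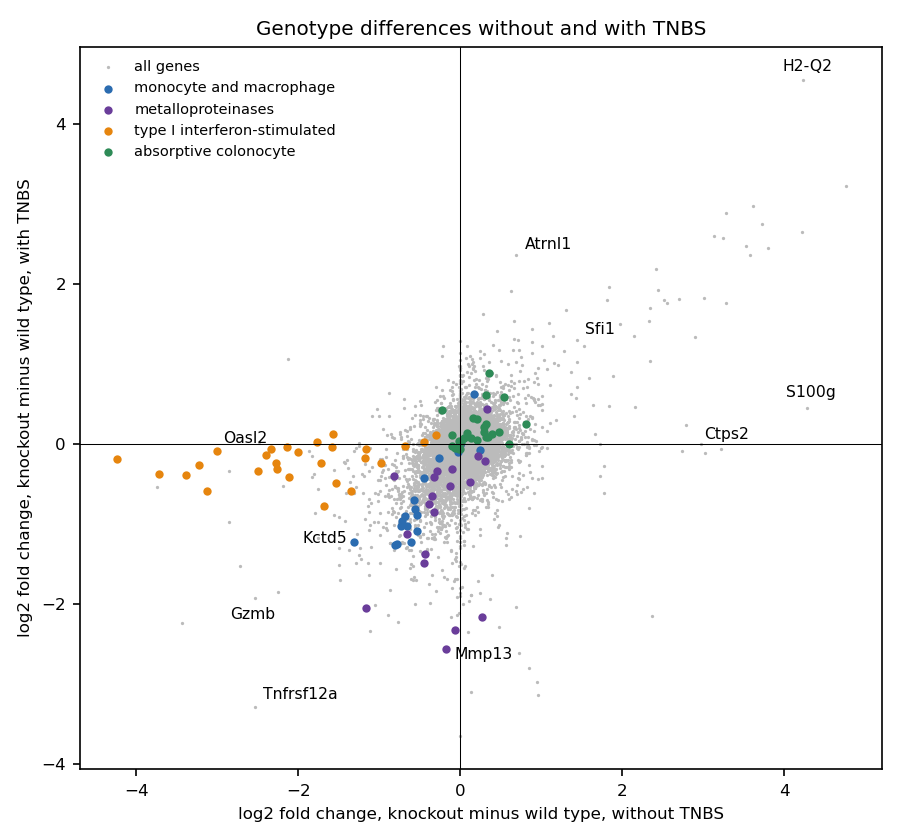
Genotype difference of every gene without TNBS (horizontal axis) and with TNBS (vertical axis), both as log2 level of the knockout minus wild type, with members of 4 lists in colour. Type I interferon genes (orange) lie to the left, lower without TNBS and near 0 with it, while Mmp13 lies straight below 0, at -2.56 with TNBS and -0.17 without.

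The test of the difference was called in 4 of 13 mast cell genes and in 3 of 8 eosinophil genes, all negative (1.37% of all genes). Mcpt1 was not among them, with changes of -1.06 without and -0.97 with TNBS (difference 0.09, adjusted p = 1.0). Without TNBS Cpa3 averaged 2.58 in wild type and 2.20 in the knockout, Fcer1a 2.17 and 2.21 and Ms4a2 2.21 and 2.17, near the floor, where a genotype difference could hardly be measured. The differences were -1.36 for Cpa3 (adjusted p = 0.0225), -2.03 for Fcer1a (adjusted p = 0.0225), -1.65 for Ms4a2 (adjusted p = 0.013) and -1.63 for Mcpt4 (adjusted p = 0.0177). Alox15 gave -2.04 (adjusted p = 0.00335), Rnase2a -2.72 (adjusted p = 0.0225) and Siglecf -1.48 (adjusted p = 0.0328). Mmp13 and Mmp9 gave -2.38 and -2.43 (adjusted p = 0.0116 and 0.0291), and they too stood low without TNBS, at 3.01 and 3.71 in wild type. Genes with a readable untreated level were Egr1, at 10.24 in wild type and 10.81 in the knockout without TNBS (difference -1.83, adjusted p = 0.00409), and Rab27a, at 9.47 and 9.10 (-1.62, adjusted p = 0.0257). Atrnl1, at 9.62 and 10.31 without TNBS, had a positive difference (1.67, adjusted p = 0.0146).

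Without TNBS 1 of 19 macrophage genes, 1 of 11 MHC class II genes, 3 of 15 CC chemokine genes and 3 of 16 cytotoxic lymphocyte genes were lower. The share over all genes was 1.91%. Macrophage genes had a median change of -0.56 without TNBS against -0.88 with it, and the difference was called in none of 19 by limma (1 at an unadjusted p under 0.05). Gzmb was lower by -2.53 without TNBS (adjusted p = 6.55e-05) and Gzma by -2.25 (adjusted p = 0.000943), with differences that did not pass (adjusted p = 0.508 and 0.762). Vcam1 (-0.72, adjusted p = 0.0473), Ccl2 (-0.86, adjusted p = 0.0346) and H2-Ab1 (-0.68, adjusted p = 0.0411) were also lower without TNBS. None of these 3 passed the test of the difference (adjusted p = 0.39, 0.647 and 0.605).

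Type I interferon-stimulated genes showed the reverse. Without TNBS 25 of 27 were lower (median -2.01; 1.91% of all genes were lower), and the difference was positive in 17 (0.621% of all genes). Oasl2, an interferon-induced antiviral gene, stood without TNBS at 9.87, 9.01, 11.17, 10.58 and 10.69 on the 5 wild-type arrays and at 7.08, 6.83, 7.52, 7.74 and 7.13 on the 5 knockout arrays. Wild-type arrays were spread but all above the knockout (-3.0, adjusted p = 1.56e-05). With TNBS wild type ran from 9.12 to 10.26 and the knockout from 9.39 to 10.09, with full overlap. The difference was 2.92 for Oasl2 (adjusted p = 0.00154) and 2.26 for Ifit1, named after its values were seen (adjusted p = 0.0137).

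Of the 5 genes with the smallest p of the difference, 4 lie on the X chromosome. Ctps2, a CTP synthase, averaged 6.01 in untreated wild type and 9.23 in the untreated knockout, while with TNBS it ran from 9.11 to 9.42 in wild type and from 9.14 to 9.35 in the knockout (-0.06 ± 0.07, adjusted p = 0.717; difference -3.28, adjusted p = 5.35e-14). S100g, a calcium-binding protein, was at 8.19 and 12.48 without TNBS and differed by 0.46 ± 0.26 with it (adjusted p = 0.33; difference -3.83, adjusted p = 8.03e-05). For both, the group that stood apart was untreated wild type. Txlng, by contrast, ran from 8.13 to 8.59 in wild type with TNBS and from 7.18 to 7.66 in the knockout (-1.06 ± 0.09, adjusted p = 3.76e-07), while untreated groups averaged 7.44 and 7.54. A dimmer Txlng probe set averaged 5.90 in wild type and 6.20 in the knockout with TNBS (0.30). Acot9 was lower with TNBS (-0.24 ± 0.05, adjusted p = 0.00671) and higher without (0.48, adjusted p = 0.000245), and its call with TNBS ended after centring. Tlr6, a receptor for bacterial lipopeptides and not X-linked, was lower with TNBS (-0.59 ± 0.05, adjusted p = 4.56e-07), with a difference of -0.53 (adjusted p = 0.00154).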

How the data were processed

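Each sample of mouse colon RNA went on 1 Affymetrix array. The authors deposited log2 values of 45101 probe sets. RMA and GCRMA are both named, per the submitters' processing notes, without saying which made them. They lie between 2.17 and 15.98, with 27.9% at the lowest value. Names come from the platform annotation (2016): 34958 named 1 gene, 932 several and 9211 none, and each of 18194 genes was read from its probe set of highest mean over all 23 arrays. Gene IDs of 34754 probe sets matched RefSeq (GRCm38.p6), which also gave neighbours and promoters.

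Group means were fitted to all 4 groups with limma (lmFit and eBayes, with 19 residual degrees of freedom), and p-values were adjusted by Benjamini-Hochberg. The number of arrays limits the precision. Genes named were Tnfrsf12a and Tnfsf12, and up to 15 per direction with the largest called changes without overlap of the groups. Further ones were up to 4 members per list with the smallest p, called or not, called neighbours and 10 genes of the difference. A selection of these is printed. Other genes, among them some named for comparison that did not pass, were chosen after their values were seen. The 44 lists and the members were chosen with earlier results of these data known. Alternatives were trend, robust and weighted fits, the 2 groups alone, a filter on dim genes, mean probe sets, quantile and median scaling, a floor, the replicate number as a block, 4 covariates and leaving out arrays; the skeletal muscle covariate and leaving out wild-type arrays 3 and 6 together were added after seeing the data. The fit was tested on simulated data. R 4.3.3, limma 3.58.1, the data.table package (1.17.8), Python 3.11.15 and matplotlib 3.10.9 were used.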

Additional observations from a re-analysis of the deposited data

Results flagged for a closer look

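Single arrays that stood apart from the rest of their group with TNBS were found in 27 of 268 groups tested (10.1%, where chance gives about 1 in 20). Knockout array 5 stood low for H2-Q2 (2.47), H2-Bl (3.00), Gzmb (4.64), Tnfrsf12a (3.84), and Ccn1 (8.36), and apart for Zfp40 (8.70). Knockout array 2 stood low for H2-M3 (5.68) and Tap2 (6.10), and array 7 for Icam1 (7.35) and Tgfbi (11.10). Knockout array 6 stood high for Mmp13 (4.39), Mmp12 (5.62), Ccl24 (2.86) and Cd209e (2.40). Other knockout arrays stood apart for Cxcl1 (2.39, array 4), Hdc (4.51, array 4), Cldn12 (11.35, array 3) and Ctla4 (2.18, array 1, at the floor). In wild type, array 3 stood high for Chil3 (10.23) and C3ar1 (8.63), array 6 low for Oasl2 (9.12) and Ifit1 (9.69) and apart for Plaur (6.01). Array 2 stood apart for Atrnl1 (9.17) and Ttll6 (4.25), array 4 for Prdm2 (6.52) and array 5 for Spen (5.97).

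The genotype effect with TNBS differed from that without, by the limma test of the difference, in 26 of the genes described. It was more negative with TNBS for the mast cell genes Cpa3 (-1.36), Ms4a2 (-1.65), Mcpt4 (-1.63), Fcer1a (-2.03) and Mcpt-ps1 (-2.10), and for Ccl24 (-1.47), Alox15 (-2.04), Rnase2a (-2.72) and Siglecf (-1.48). The same held for Cd209e (-1.86), Ccl7 (-1.81), Mmp13 (-2.38), Mmp9 (-2.43), Tgfb1 (-1.14), Ch25h (-1.44), Rab27a (-1.62), Egr1 (-1.83), Txlng (-1.16), Tlr6 (-0.53), Acot9 (-0.72), Ctps2 (-3.28) and S100g (-3.83). It was more positive for Oasl2 (2.92), Ifit1 (2.26), Atrnl1 (1.67) and Tsacc (0.78).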

How the results depend on the processing

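For 134 of the genes given with values, the result under each alternative was tallied. Of these 126 were called with TNBS, 63 of them under all 28 alternatives (13 that leave out 1 array and 15 others). No called gene among them changed direction. Genes given in passing that did not pass, such as S100a8, Tnf, Il6, Foxp3, Ifng, Muc2, Mki67 and Mmp7, are not in this tally. The Gapdh covariate ended 46 of the 126 calls, the skeletal muscle covariate 31, leaving out wild-type arrays 3 and 6 28, and the B cell covariate and the floor at log2 5 18 each. That floor ended the calls of Ccl7, Hdc, Cxcl1, Cxcl5, Ctla4, Ccr7 and H2-Bl. It also ended those of Mmp12, Cyp3a44, Ciart, Arntl, Plau, Plaur and Tlr6, besides Ccl24, Alox15, Cd209e and Tgfb1. The count of 1902 genes was 1230 with the replicate number as a block, 738 with the Gapdh covariate, 1179 with the B cell covariate, 1177 without wild-type arrays 3 and 6, and 1391 (without wild-type array 5) to 2106 (without wild-type array 2) without 1 array. The 879 genes without TNBS became 288 with the 2 groups alone, 100 with the skeletal muscle covariate, 738 with the replicate block and 458 to 923 without 1 array. The 363 genes of the difference became 547 after centring, 172 with the replicate block, 226 without wild-type arrays 3 and 6 and 213 to 443 without 1 array. The difference in Gapdh 3' minus 5' signal ran from -0.14 to -0.096 without 1 array. The cause of these shifts was not tested. Among those of the 134 that did not pass, the sign reversed for Ms4a1 with the B cell covariate (0.21) and Oasl2 after centring (0.002). It also reversed for Oasl2 and Ifit1 with the Gapdh covariate (0.0696 and 0.14) and for Ctps2 after centring (0.0305). Ms4a1 belongs to the list whose mean was the B cell covariate, so its change was partly removed by construction. Same-numbered arrays with TNBS did not deviate together: their correlations ran from -0.46 to 0.431, with 3 of 6 over 0.1 and none highest with its own number, so the numbers were not taken as pairs, and the block ended 14 of the 126 calls.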
